A study of Mus musculus with 16 samples.

Results

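The 36 genes described here act in mitosis and in G2, the phase that leads into it. They were taken as a named list of symbols and matched to NCBI Gene IDs, and all 36 were found among the 36528 IDs of the count files. All 36 also passed the filter on low counts, which left 18072 genes to test. Bulk RNA was sequenced from tumour cells of the mouse intestine that had been sorted by GFP. The tumours carry the labels AKVPL or AKVPSL, with 4 libraries in each of 4 groups: AKVPL GFP-, AKVPL GFP+, AKVPSL GFP- and AKVPSL GFP+. GFP is taken as the reporter of Lgr5, a receptor of intestinal stem cells, since the design text calls the sorted cells positive or negative for Lgr5. The labels do not spell out the genotype letters. From what is known of such models, V stands for a villin-driven Cre recombinase, L for the Lgr5 reporter and the added S, the difference between the genotypes, for Smad4. Age, treatment, the number of animals and the number of tumour lines behind each genotype are not stated in the labels. The labels do not say that replicates came from separate animals, so p-values cover the spread among these libraries alone, and that spread may be technical.

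Entry into mitosis is driven by the kinase Cdk1 bound to A- and B-type cyclins. The condensed chromosomes attach to spindle microtubules through kinetochores, and the spindle checkpoint holds the anaphase-promoting complex (APC/C), a ubiquitin ligase, in check until every chromosome is attached. Cleavage of the cell then follows at the spindle midzone. In the intestine dividing cells lie in the crypts, where Lgr5-expressing stem cells sit at the base and their dividing progeny above them. Most genes of this group share transcriptional control: in resting cells the DREAM complex holds them silent through a short promoter element, the cell cycle genes homology region (CHR), and in G2 the MYBL2-MuvB complex and FOXM1 act through the same element, together with NF-Y bound at CCAAT boxes.

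Depth ran from 10.881 to 41.602 M counts per library, with a median of 25.9 M. The colon is named in all 16 titles, but the tissue field gives the small intestine for 15 libraries and the colon for 1, AKVPSL GFP- replicate 1. Lgr5 was higher in every GFP+ library than in every GFP- library of the same genotype, by 2.18 ± 0.16 (SE) log2 units in AKVPL and 1.99 ± 0.15 in AKVPSL. Smad4 RNA went against the genotype label: in AKVPSL it ran from 222 to 283 CPM (a gene's counts relative to its library's total, scaled by the TMM method) in GFP+ cells, against 149 to 157 CPM in the AKVPL group. In GFP- cells the ranges overlapped, at 150 to 211 CPM in AKVPSL and 126 to 159 CPM in AKVPL. The log2 fold change there was 0.37 ± 0.11 (SE). The counts are per gene and do not show whether a deleted exon is covered. AKVPL and AKVPSL are therefore used below only as the labels of the libraries. Marker genes of other cells moved with the groups as well. The 20 leukocyte markers summed to 4903 to 9372 CPM in AKVPL GFP- and 517 to 1364 in AKVPL GFP+ cells. In AKVPSL they summed to 1073 to 3629 CPM in GFP- and 62 to 307 CPM in GFP+ cells. The 14 fibroblast markers summed to 4687 to 9771, 575 to 1195, 1434 to 2964 and 205 to 1085 CPM in the same order. Endothelial markers (12 genes) summed to 480 to 850, 162 to 198, 253 to 575 and 251 to 338 CPM, and mast cell markers (7 genes) to 232 to 608, 6.1 to 21.4, 30.1 to 145 and 9.0 to 17.3 CPM. Gene by gene, 11 of the 12 endothelial markers fell with the sort in AKVPL (median log2 fold change -2.62). In AKVPSL 9 of the 12 fell and 1 rose (median -2.91), although the sums overlap. The defining markers Ptprc, Col1a1 and Pecam1 were above 0 in all 16 libraries. Epcam, the epithelial marker, ran from 1217 to 1492 CPM in AKVPL GFP- cells and from 1878 to 1997 CPM in AKVPL GFP+ cells. In the libraries labelled AKVPSL it ran from 1794 to 2045 CPM. For Epcam AKVPL GFP- alone stood lower, but sums of the 24 epithelial markers overlapped between the AKVPL groups. They ran from 11152 to 13524 CPM in AKVPL GFP-, 12947 to 16135 in AKVPL GFP+, 14432 to 15064 in AKVPSL GFP- and 13786 to 14129 in AKVPSL GFP+. Of the 23 tested, 12 rose and 0 fell with the sort in AKVPL, and 5 rose and 4 fell in AKVPSL. Between the genotypes 5 were higher and 5 lower in GFP+ cells, and 13 higher and 1 lower in GFP- cells. The comparisons below that include AKVPL GFP- libraries share a pattern: these libraries held the most leukocyte and fibroblast RNA and the least mitotic RNA. The comparison of the sorts in AKVPSL and that of the genotypes in GFP+ cells hold no such library. With the sort, leukocyte markers had a median log2 fold change of -2.90 in AKVPL and -3.41 in AKVPSL. For fibroblast markers it was -3.28 and -2.15. The part of these markers in the results was not tested. In such bulk libraries fewer cells of a type and less RNA per cell cannot be told apart.

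By group mean all 36 genes were lowest in AKVPL GFP- cells, and their summed level was highest in AKVPSL GFP+ cells. Values are given throughout in the order of replicates 1 to 4. Summed over the members, AKVPL GFP- libraries held 892, 811, 752 and 713 CPM. AKVPL GFP+ libraries held 2343, 2122, 1655 and 1967 CPM, and AKVPSL GFP- libraries a similar 2354, 1995, 1523 and 1793 CPM. AKVPSL GFP+ libraries held 3030, 2975, 2433 and 2360 CPM, so that the lowest of them lay just above the highest of the other 12. By group mean, 18 members ranked AKVPSL GFP+ first, then AKVPL GFP+, then AKVPSL GFP-, and 12 ranked AKVPSL GFP+ first, then AKVPSL GFP-, then AKVPL GFP+. Cenpa, Birc5 and Mad2l1 were highest in AKVPSL GFP- cells, and Nusap1, Kif23 and Ube2c in AKVPL GFP+ cells. Whether a gene's neighbours in these orders differ is given by the comparisons below.

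**Figure D1:**
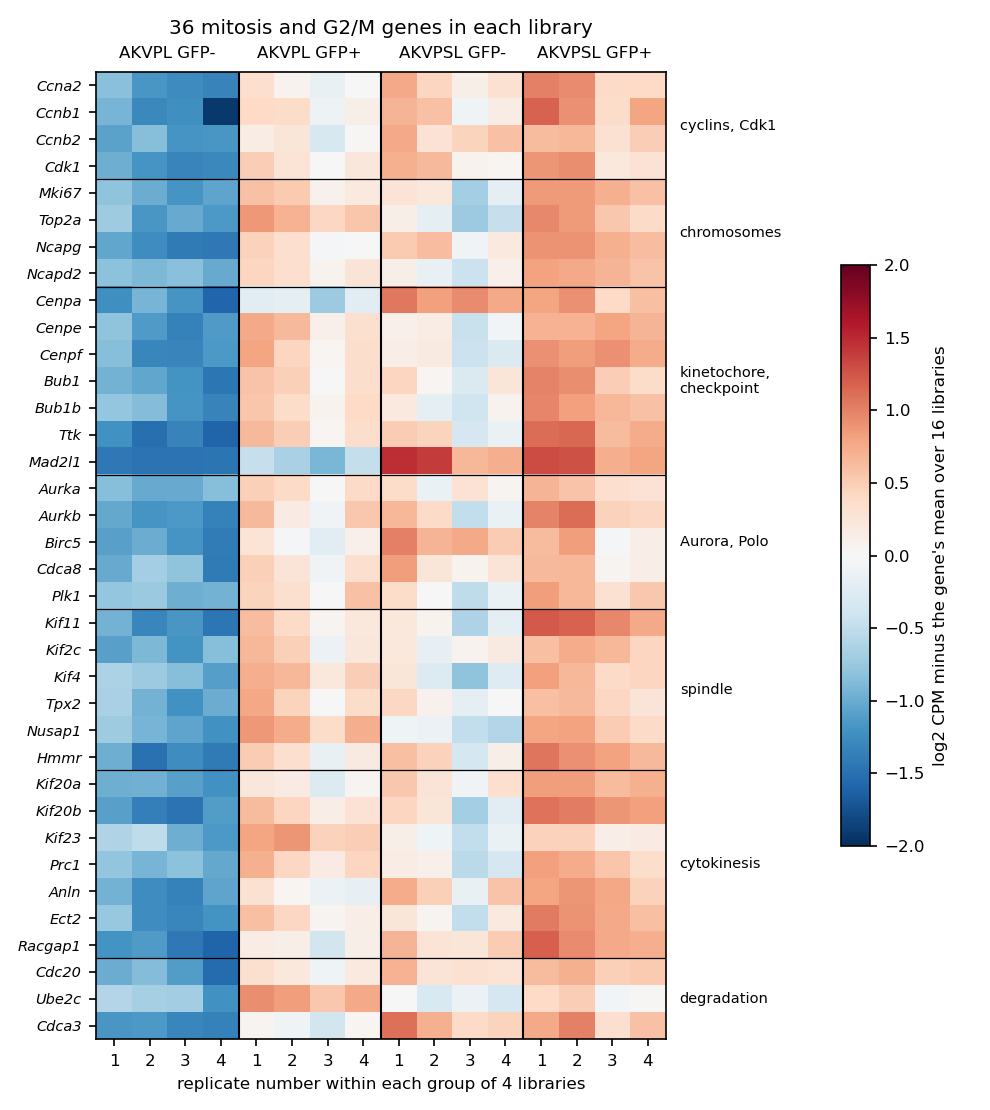
Heat map of the 36 genes (rows, by role) in the 16 libraries (columns, by group and replicate); colour is log2 CPM minus the mean of that gene over all libraries. The AKVPL GFP- columns have the lowest mean for every gene, and replicate 3 is pale in AKVPL GFP+, where it is the lowest library for 35 of the 36 genes.

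Replicates of a group moved together over the list. Replicate 1 was the highest library for 24 members in AKVPL GFP-, for 32 in AKVPL GFP+ and for 33 in AKVPSL GFP-. Replicate 3 was the lowest library for 35 members in AKVPL GFP+ and for 27 in AKVPSL GFP-. The coefficient of variation between the 4 libraries had a median over members of 14.0% and 15.6% in AKVPL GFP- and GFP+ cells, and of 21.0% and 14.2% in the same sorts of AKVPSL. Because the members share their libraries in this way, their counts below are not independent of each other.

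Levels between genes were compared per length, in the deposited size-factor-adjusted RPKM. In AKVPL GFP+ cells Ube2c was the highest member, at 59.5 ± 6.04 RPKM (SD, n = 4), followed by Top2a at 42.0 ± 5.29 RPKM. In AKVPSL GFP+ cells the order was headed by Mad2l1 at 57.5 ± 11.9 RPKM, Cenpa at 49.9 ± 7.69 RPKM and Cdca3 at 46.5 ± 9.02 RPKM, values that overlap within their spread. Ccnb1 was the lowest member in every group, from 0.771 ± 0.205 RPKM in AKVPL GFP- to 3.17 ± 0.701 RPKM in AKVPSL GFP+. A processed copy, Ccnb1-ps, took 275 counts over all libraries against 2377 for Ccnb1, and only uniquely aligned reads were counted, so the level of Ccnb1 is uncertain.

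The promoters of the members carry the letters of the shared control described above. RefSeq promoter windows of 300 bases (250 before and 50 after the start, GRCm38.p6) were found for 32 of the 36 genes, 34 windows in all, since 2 genes have another start; Ccna2, Aurkb, Tpx2 and Kif20a had no entry. On either strand, the letters of the CHR (TTTGAA, or its other common form TTCGAA) stood in 29 of 34 windows (85.3%), against 19.2% of all 32851 windows in the table. CCAAT stood in 28 of 34 (82.4%) against 37.4%, and both together in 26 of 34 (76.5%) against 7.5%. Neighbouring CCAAT boxes 30 to 35 bases apart stood in 7 of 34 windows (20.6%) against 1.19%. These matches are descriptions of letters and not of bound sites. The 6 stretches printed here are the 120 bases before the start of 3 genes whose level did not pass the test between GFP+ and GFP- cells in AKVPSL (Ccnb2, Cdc20, Cdk1) and 3 that rose there (Top2a, Kif11, Ube2c). Each reads 5′ to 3′ along the gene, with CHR letters, CCAAT boxes and the reverse complements of both in capitals. Motifs of either kind stand in both sets, so that these letters do not separate the 6; Ccnb2 has its CHR letters at other places in the window, outside the stretch printed. The windows of Birc5, Mad2l1 and Nusap1 held none of these letters.
Ccnb2 (chr9:70421555-70421674, minus strand): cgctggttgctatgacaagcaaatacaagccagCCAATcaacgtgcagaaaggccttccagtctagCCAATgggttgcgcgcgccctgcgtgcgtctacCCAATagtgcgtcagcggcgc
Cdc20 (chr4:118437344-118437463, minus strand): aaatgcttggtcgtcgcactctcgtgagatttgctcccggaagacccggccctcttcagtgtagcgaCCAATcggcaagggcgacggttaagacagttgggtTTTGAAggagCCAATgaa
Cdk1 (chr10:69352913-69353032, minus strand): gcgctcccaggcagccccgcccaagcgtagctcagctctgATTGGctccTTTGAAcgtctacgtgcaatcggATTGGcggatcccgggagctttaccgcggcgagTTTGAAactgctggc
Top2a (chr11:99024190-99024309, minus strand): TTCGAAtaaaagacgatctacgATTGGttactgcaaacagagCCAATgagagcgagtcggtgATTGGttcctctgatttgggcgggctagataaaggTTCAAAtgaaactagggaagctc
Kif11 (chr19:37376262-37376381, plus strand): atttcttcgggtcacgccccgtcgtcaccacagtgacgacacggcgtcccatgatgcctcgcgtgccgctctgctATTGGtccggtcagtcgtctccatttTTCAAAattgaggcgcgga
Ube2c (chr2:164769809-164769928, plus strand): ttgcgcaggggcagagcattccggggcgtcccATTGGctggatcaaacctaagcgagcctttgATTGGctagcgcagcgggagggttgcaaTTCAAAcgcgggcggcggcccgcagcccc

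Between GFP+ and GFP- cells of AKVPL tumours all 36 members rose, where 22.6% of the 18072 genes tested rose and 16.5% fell. The median log2 fold change of the members was 1.36, with a range from 0.85 (Mad2l1) to 1.80 (Ttk), beside a median of 0.14 over all genes tested. For every member all 4 GFP+ values were higher than all 4 GFP- values (24.7% of all genes did so). A change of scale shifts all genes of a comparison nearly alike. The members' median was thus 1.22 above that of all genes with TMM, DESeq2's size factors, library totals and 23 epithelial markers as scale. This distance could hardly have moved, so it is no check of the result across scales. The split of all calls did move with the scale: 57.84% of the genes called were higher with TMM, 42.09% with DESeq2's size factors, 44.92% with library totals and 8.96% with the epithelial scale. With the epithelial scale 35 members rose, and Mad2l1, at 0.46, did not (edgeR adjusted p = 0.0563).

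The cyclins and their kinase rose together in AKVPL, with a median of 1.32 over 4 genes. Cdk1 stood at 27.1, 23.5, 21.3 and 21.8 CPM in AKVPL GFP- cells and at 75.1, 64.0, 53.1 and 62.1 in AKVPL GFP+ cells, and at 86.9, 83.5, 56.1 and 54.5 in AKVPSL GFP- cells and 98.6, 101, 61.7 and 64.8 in AKVPSL GFP+ cells. In AKVPL its GFP+ libraries were all above its GFP- libraries, a log2 fold change of 1.44 ± 0.19 (SE; edgeR adjusted p = 1.93e-05). Ccnb2, a B-type cyclin, stood at 20.5, 23.9, 18.9 and 19.1 CPM in AKVPL GFP- cells and at 47.8, 50.9, 34.4 and 43.8 in AKVPL GFP+ cells, and at 72.5, 52.5, 58.6 and 64.3 in AKVPSL GFP- cells and 67.0, 68.2, 53.1 and 60.2 in AKVPSL GFP+ cells. Its AKVPL groups are apart and its AKVPSL groups overlap, with log2 fold changes of 1.10 ± 0.13 (SE; edgeR adjusted p = 5.81e-06) in AKVPL and 0.00 ± 0.13 (SE; edgeR adjusted p = 0.991) in AKVPSL. Ccna2, the cyclin of S phase and G2, rose by 1.21 ± 0.17 in AKVPL, and Ccnb1 by 1.48 ± 0.24. In AKVPSL no gene of these 4 passed the test: Ccna2 stood at 0.29 ± 0.16, Ccnb1 at 0.48 ± 0.22 and Cdk1 at 0.22 ± 0.18. With the replicate number as a block, 3 of the 4 rose in AKVPSL, Ccna2 by 0.27 (edgeR adjusted p = 0.0167), Ccnb1 by 0.48 (0.0229) and Cdk1 by 0.21 (0.0308).

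The genes of chromosome structure rose with the sort in both genotypes, 4 of 4 in each. Top2a, the topoisomerase that untangles sister chromatids, stood at 94.8, 68.9, 77.4 and 69.8 CPM in AKVPL GFP- cells and at 282, 252, 206 and 228 in AKVPL GFP+ cells, and at 168, 138, 93.7 and 112 in AKVPSL GFP- cells and 303, 281, 226 and 202 in AKVPSL GFP+ cells. The GFP+ libraries are above the GFP- libraries in both genotypes, with log2 fold changes of 1.64 ± 0.17 (SE; edgeR adjusted p = 2.04e-06) in AKVPL and 0.98 ± 0.17 (SE; edgeR adjusted p = 1.99e-04) in AKVPSL. Mki67, which coats mitotic chromosomes and marks dividing cells, stood at 101, 88.2, 77.8 and 84.8 CPM in AKVPL GFP- cells and at 265, 253, 186 and 201 in AKVPL GFP+ cells, and at 212, 204, 109 and 155 in AKVPSL GFP- cells and 319, 319, 286 and 264 in AKVPSL GFP+ cells. It rose by 1.36 ± 0.17 (SE; edgeR adjusted p = 1.07e-05) in AKVPL and by 0.80 ± 0.17 (SE; edgeR adjusted p = 9.37e-04) in AKVPSL. Of the condensin subunits, which compact chromosomes, Ncapd2 rose by 1.17 ± 0.11 and 0.78 ± 0.11, and Ncapg by 1.47 ± 0.16 and 0.45 ± 0.15.

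All 7 kinetochore and checkpoint genes rose in AKVPL, and 5 of 7 in AKVPSL. Ttk, the kinase that starts checkpoint signalling, stood at 4.57, 3.71, 4.16 and 3.47 CPM in AKVPL GFP- cells and at 16.6, 14.7, 10.8 and 13.4 in AKVPL GFP+ cells, and at 14.9, 14.4, 8.33 and 9.59 in AKVPSL GFP- cells and 22.7, 23.3, 16.4 and 17.5 in AKVPSL GFP+ cells. Its rise of 1.80 ± 0.20 (SE; edgeR adjusted p = 3.13e-06) in AKVPL was the largest of the 36, and it rose by 0.76 ± 0.19 (SE; edgeR adjusted p = 0.00327) in AKVPSL. Mad2l1, the checkpoint protein that binds Cdc20, stood at 23.4, 22.7, 22.6 and 22.9 CPM in AKVPL GFP- cells and at 45.8, 40.1, 33.4 and 45.3 in AKVPL GFP+ cells, and at 175, 166, 100.3 and 104 in AKVPSL GFP- cells and 155, 152, 105 and 109 in AKVPSL GFP+ cells. Its groups separate by genotype far more than by sort, and both AKVPSL groups show the same pattern of high replicates 1 and 2. Cenpa, the histone variant that marks centromeres, stood at 23.2, 28.4, 23.9 and 17.9 CPM in AKVPL GFP- cells and at 46.1, 47.3, 32.9 and 46.6 in AKVPL GFP+ cells, and at 113, 95.2, 104 and 92.0 in AKVPSL GFP- cells and 93.6, 102, 71.2 and 82.6 in AKVPSL GFP+ cells. Mad2l1 and Cenpa were the members of this role group that did not pass the test in AKVPSL, at -0.06 ± 0.18 and -0.21 ± 0.14. The kinetochore motor Cenpe rose by 1.57 ± 0.15 in AKVPL and 0.76 ± 0.15 in AKVPSL, and the kinetochore protein Cenpf by 1.57 ± 0.16 and 0.93 ± 0.16. The checkpoint kinases Bub1 and Bub1b rose by 1.50 ± 0.18 and 1.37 ± 0.15 in AKVPL and by 0.59 ± 0.17 and 0.83 ± 0.15 in AKVPSL.

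Among the mitotic kinases and their partners all 5 genes rose in AKVPL, and 2 of 5 in AKVPSL. Birc5 (survivin), a subunit of the chromosomal passenger complex, stood at 12.5, 13.3, 11.7 and 9.99 CPM in AKVPL GFP- cells and at 31.8, 25.8, 22.8 and 28.5 in AKVPL GFP+ cells, and at 53.2, 42.3, 44.7 and 37.6 in AKVPSL GFP- cells and 40.8, 47.2, 25.7 and 29 in AKVPSL GFP+ cells. It rose by 1.19 ± 0.17 (SE; edgeR adjusted p = 4.24e-05) in AKVPL and had the lowest value of all members in AKVPSL, -0.32 ± 0.17 (SE; edgeR adjusted p = 0.129), with overlapping groups. The other subunits did not share one value in AKVPSL. Aurkb, the kinase of the complex, rose by 0.61 ± 0.22 (SE; edgeR adjusted p = 0.0343), although its call was lost in 8 of 27 alternatives. Cdca8 (borealin) stood at 0.02 ± 0.19 (SE; edgeR adjusted p = 0.934). Plk1, a kinase at centrosomes and kinetochores, stood at 23.2, 23.8, 20.1 and 20.6 CPM in AKVPL GFP- cells and at 53.7, 49.6, 39.6 and 59.5 in AKVPL GFP+ cells, and at 51.1, 39.8, 28 and 36.2 in AKVPSL GFP- cells and 70.7, 62.7, 49.2 and 57.3 in AKVPSL GFP+ cells. It rose by 1.20 ± 0.16 (SE; edgeR adjusted p = 1.76e-05) in AKVPL and by 0.63 ± 0.16 (SE; edgeR adjusted p = 0.00345) in AKVPSL, where the groups overlap by replicate 1 of the GFP- cells. Aurka, the centrosomal Aurora kinase, rose by 1.25 ± 0.14 in AKVPL and stood at 0.32 ± 0.13 (SE; edgeR adjusted p = 0.0501) in AKVPSL. With the replicate block it rose there by 0.33 (edgeR adjusted p = 0.0300).

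The spindle genes rose with the sort in both genotypes, 6 of 6 in each. Kif11, the motor that pushes spindle poles apart, stood at 17, 13.1, 14.5 and 11.9 CPM in AKVPL GFP- cells and at 49.7, 42.5, 33.8 and 37.8 in AKVPL GFP+ cells, and at 37.7, 34.3, 21.1 and 28.4 in AKVPSL GFP- cells and 76.5, 73.8, 63.4 and 54.9 in AKVPSL GFP+ cells. It rose by 1.53 ± 0.17 (SE; edgeR adjusted p = 3.18e-06) in AKVPL and by 1.14 ± 0.17 (SE; edgeR adjusted p = 4.14e-05) in AKVPSL, the largest value among the members there. Nusap1, which bundles spindle microtubules, rose by 1.65 ± 0.16 and 0.94 ± 0.15, and Kif4, a chromosome-bound motor, by 1.35 ± 0.18 and 0.81 ± 0.18. Kif2c, which shortens microtubules at kinetochores, rose by 1.35 ± 0.15 and 0.53 ± 0.15, and Hmmr, a spindle-associated protein, by 1.50 ± 0.19 and 0.61 ± 0.18. Tpx2, the activator of Aurka on the spindle, rose by 1.36 ± 0.16 in AKVPL. Its value of 0.39 ± 0.16 (SE; edgeR adjusted p = 0.0478) in AKVPSL is close to the threshold and lost its call in 18 of 27 alternatives.

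Of the cytokinesis genes, 7 of 7 rose in AKVPL and 6 of 7 in AKVPSL. Kif23 and Racgap1 form centralspindlin, the complex at the spindle midzone that recruits Ect2, the activator of the cleavage furrow. Kif23 stood at 32.3, 34.6, 24.98 and 22.1 CPM in AKVPL GFP- cells and at 84.9, 90.4, 67.6 and 69.0 in AKVPL GFP+ cells, and at 53.6, 46.2, 35.1 and 44.7 in AKVPSL GFP- cells and 67.4, 67.4, 54.2 and 54.9 in AKVPSL GFP+ cells. Racgap1 stood at 28.0, 29.3, 23.9 and 21.1 CPM in AKVPL GFP- cells and at 70.8, 69.7, 49.9 and 69.9 in AKVPL GFP+ cells, and at 103, 77.0, 75.8 and 91.1 in AKVPSL GFP- cells and 147, 123, 108 and 106 in AKVPSL GFP+ cells. Both rose in both genotypes, Kif23 by 1.45 ± 0.15 and 0.44 ± 0.15, Racgap1 by 1.34 ± 0.14 and 0.48 ± 0.14. Their highest groups differ: AKVPL GFP+ for Kif23 and AKVPSL GFP+ for Racgap1. Ect2 rose by 1.42 ± 0.17 and 0.80 ± 0.16, the midzone bundler Prc1 by 1.33 ± 0.15 and 0.75 ± 0.15, and the midzone motors Kif20a and Kif20b by 1.11 ± 0.12 and 1.64 ± 0.19 in AKVPL and 0.47 ± 0.12 and 0.95 ± 0.18 in AKVPSL. Anln, a scaffold of the contractile ring, rose by 1.17 ± 0.16 in AKVPL and stood at 0.29 ± 0.16 (SE; edgeR adjusted p = 0.141) in AKVPSL.

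The 3 genes of protein degradation rose in AKVPL, and 1 of 3 in AKVPSL. Cdc20, the activator of the APC/C in mitosis, stood at 23.7, 26.1, 21.9 and 16.2 CPM in AKVPL GFP- cells and at 59.2, 54.8, 44.8 and 54.2 in AKVPL GFP+ cells, and at 76.2, 56.8, 58.4 and 57 in AKVPSL GFP- cells and 73.6, 77.4, 65.6 and 67.8 in AKVPSL GFP+ cells. It rose by 1.27 ± 0.13 (SE; edgeR adjusted p = 1.59e-06) in AKVPL and stood at 0.19 ± 0.13 (SE; edgeR adjusted p = 0.233) in AKVPSL, where replicate 1 of the GFP- cells is above 3 of the 4 GFP+ libraries. Ube2c, the ubiquitin-conjugating enzyme of the APC/C, stood at 23.8, 22.4, 22.0 and 15.4 CPM in AKVPL GFP- cells and at 67.8, 63.4, 51.9 and 60.4 in AKVPL GFP+ cells, and at 35.4, 28.8, 33 and 28.2 in AKVPSL GFP- cells and 47.0, 50.1, 34.3 and 36.03 in AKVPSL GFP+ cells. It rose by 1.53 ± 0.15 (SE; edgeR adjusted p = 6.76e-07) in AKVPL and by 0.42 ± 0.14 (SE; edgeR adjusted p = 0.0232) in AKVPSL. Cdca3, which promotes breakdown of the mitotic inhibitor Wee1, rose by 1.16 ± 0.16 in AKVPL and stood at 0.01 ± 0.15 (SE; edgeR adjusted p = 0.982) in AKVPSL.

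**Figure D2:**
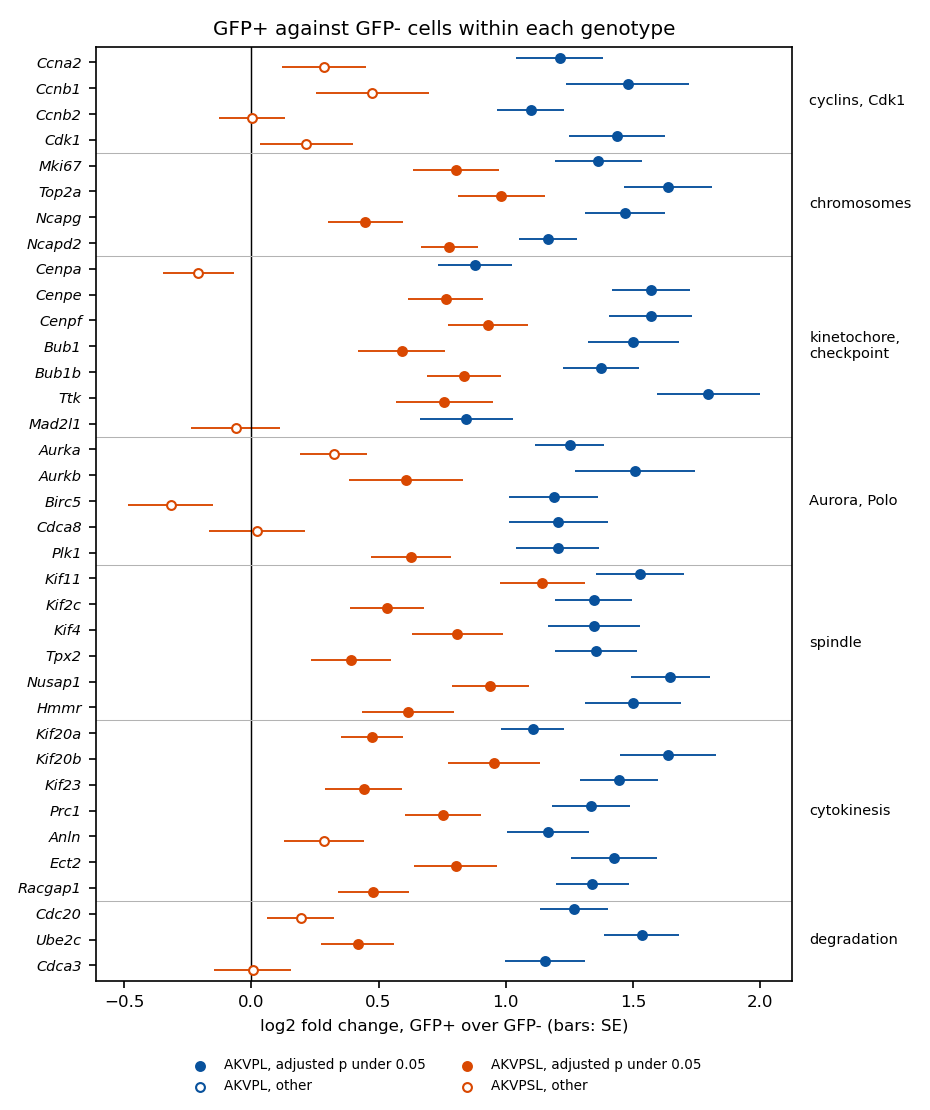
Log2 fold change of GFP+ over GFP- cells for each of the 36 genes, with its SE, in AKVPL (blue) and AKVPSL (orange); filled points passed an edgeR adjusted p of 0.05. All blue points lie between 0.85 and 1.80, and the orange point of each gene lies to the left of its blue point.

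In AKVPSL tumours 24 of 36 members rose between GFP- and GFP+ cells and 0 fell, where 22.4% of all genes tested rose and 24.6% fell. Without an adjustment over genes, 26 members had a p under 0.05; DESeq2's Wald test also found 0 that fell, and leaving out AKVPSL GFP- replicate 4 or GFP+ replicate 2 brought 1 member, Birc5, past the threshold as lower. The median log2 fold change was 0.51, beside -0.01 over all genes, and values ran from -0.32 to 1.14. The groups did not overlap for 19 members (19.5% of all genes). Without AKVPSL GFP+ replicate 1, 16 members rose, with a median of 0.38, and without AKVPSL GFP- replicate 1, the library whose tissue field names the colon, 24 rose, with a median of 0.52. The difference of the sort effects, AKVPSL minus AKVPL, was below 0 for all 36 members. It passed the test as lower for 25 of 36, where 13.7% of all genes did so and 7.02% were higher. Its median was -0.89, beside -0.10 over all genes. It was largest for Birc5, at -1.51 ± 0.24 (SE; edgeR adjusted p = 4.38e-04), Cdk1, at -1.22 ± 0.26 (SE; edgeR adjusted p = 0.00402), and Cdca8, at -1.18 ± 0.27 (SE; edgeR adjusted p = 0.00555). It did not pass the test for Kif11, at -0.38 ± 0.24 (SE; edgeR adjusted p = 0.259), Ncapd2, at -0.39 ± 0.16, and Mki67, at -0.56 ± 0.24. All 12 members that did not rise in AKVPSL were among the 25, and the other 13 rose in both genotypes. With the replicate block 34 members passed, with Kif11 and Ncapd2 as the exceptions, and without AKVPSL GFP- replicate 3, 35 did. With the epithelial scale, which moved the median of all genes from -0.10 to 0.24, 11 members passed. The median of all 36 members was then -0.56. Relative to all genes it was -0.80, and -0.79 with TMM, a distance that a change of scale leaves nearly fixed. Of all genes called for this difference, 33.82% were higher with TMM, 49.21% with DESeq2's size factors, 44.25% with library totals and 83.66% with the epithelial scale. Cenpf and Ccnb1 lost their call in 20 and 17 of 26 alternatives, and Nusap1 in 13.

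The spread of the members in AKVPSL followed gene length. Length was taken from the deposited counts and RPKM values of each gene and set relative to the members' median, so that Ube2c stood at 0.26 and Cenpf at 3.26. Over the 36 members the sort effect in AKVPSL had a Spearman rho of 0.66 with length, and over all 18072 genes 0.28. All these points share the same 8 libraries, so the values are descriptions across genes. The fifth of all genes with the shortest length had a median of -0.32 and the fifth with the longest 0.33. In AKVPL the rho was 0.00 over all genes and 0.39 over the members. Of the 12 shortest members, 3 rose in AKVPSL, with a median of 0.24. Of the 12 of middle length 10 rose, with a median of 0.51, and of the 12 longest 11, with a median of 0.80. The difference of the sort effects also followed length, with a rho of 0.63 over the members and 0.31 over all genes. It was called lower for 10 of the 12 shortest members, 10 of the 12 of middle length and 5 of the 12 longest.

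An offset that takes the trend with length over all genes out of each library, chosen after the data were seen, narrowed the members without removing the change. Their median in AKVPSL became 0.43, their SD over genes went from 0.36 to 0.28, the rho with length from 0.66 to 0.16, and 22 members rose. By length the calls were 5, 8 and 9 of 12. Cdc20 then rose by 0.36 (edgeR adjusted p = 0.0190) and Aurka by 0.46 (0.00543), while Mki67 stood at 0.33 (0.121), Ncapg at 0.33 (0.0716), Kif23 at 0.31 (0.0984) and Tpx2 at 0.23 (0.234). Birc5 stayed the lowest member, at -0.40. The difference of the sort effects had a median of -0.78 under the offset and was lower for 25 members, not the same 25. Its rho with length over the members went from 0.63 to -0.17. By length, from short to long, the calls became 8, 9 and 8 of 12. Ccnb1, Mad2l1 and Nusap1 no longer passed (edgeR adjusted p = 0.0911, 0.0856 and 0.0615), while Mki67, Ncapd2 and Kif20b passed (0.0281, 0.0420 and 0.0358). The part of length in the differences between members was not tested further.

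**Figure D3:**
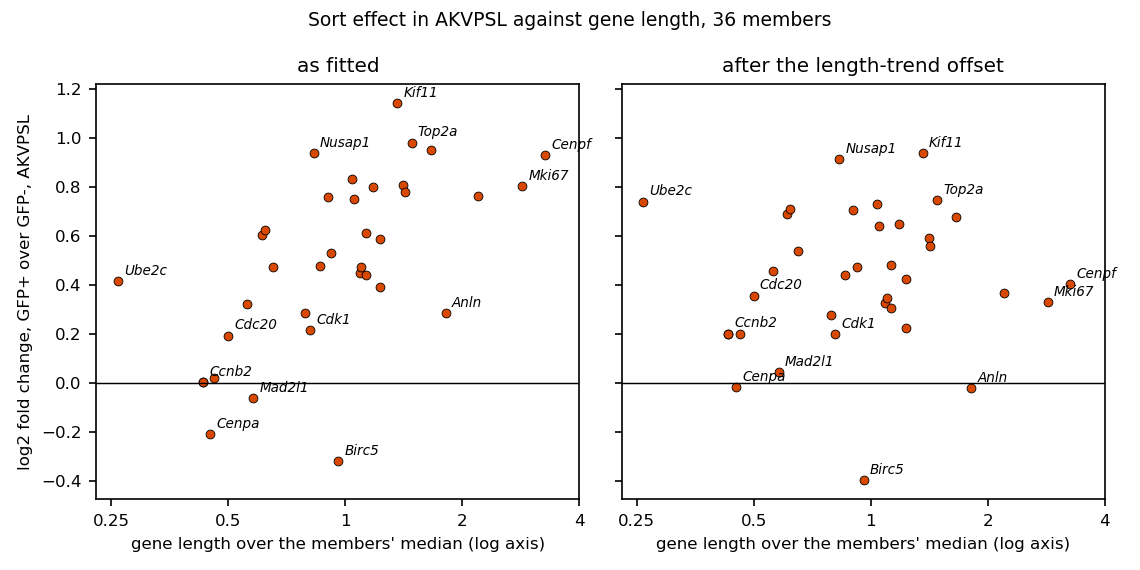
Sort effect in AKVPSL (log2 fold change, GFP+ over GFP-) against gene length relative to the members' median (log axis) for the 36 genes, as fitted (left) and after the length-trend offset (right). The rising trend on the left, rho 0.66, is nearly flat on the right, rho 0.16; Birc5 is the lowest point in both.

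Between the genotypes the members had the larger median difference in GFP- cells. In GFP- cells all 36 were higher in the libraries labelled AKVPSL, where 32.0% of all genes tested were higher and 30.7% lower. The median was 1.26, beside 0.00 over all genes, with a range from 0.58 (Ube2c) to 2.57 (Mad2l1). For 34 members the groups did not overlap (27.3% of all genes). With the epithelial scale 33 were higher, with a median of 0.96, and Kif4, Nusap1 and Ube2c did not pass; with the length-trend offset Ube2c did not pass either. That scale moved the share of higher genes among all calls from 51.08% to 31.64% and the median of all genes from 0.00 to -0.30. In GFP+ cells 19 members were higher in the libraries labelled AKVPSL and 1 was lower, where 24.9% of all genes were higher and 28.1% lower. The median there was 0.42, beside -0.05 over all genes. For 15 members the AKVPSL libraries were all higher and for 2 all lower, Kif23 and Ube2c (25.0% and 26.3% of all genes). These comparisons share libraries with the comparisons between GFP+ and GFP- cells. For each gene, the genotype difference in GFP+ cells minus that in GFP- cells is the difference of sort effects given above. The contrast between the 2 sorts is thus no further result.

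Mad2l1 had the largest difference between the genotypes in both sorts, 1.66 ± 0.18 (SE; edgeR adjusted p = 5.74e-07) in GFP+ cells and 2.57 ± 0.19 (SE; edgeR adjusted p = 4.07e-09) in GFP- cells. All 8 AKVPSL libraries, at 100.3 CPM or more, lay above all 8 AKVPL libraries, at 45.8 CPM or less. Cenpa followed with 1.02 ± 0.14 (SE; edgeR adjusted p = 8.04e-06) and 2.11 ± 0.15 (SE; edgeR adjusted p = 1.23e-09). Racgap1 differed by 0.90 ± 0.14 (SE; edgeR adjusted p = 3.07e-05) in GFP+ cells and 1.76 ± 0.15 (SE; edgeR adjusted p = 1.06e-08) in GFP- cells. Its partner Kif23 went the other way in GFP+ cells, at -0.36 ± 0.15 (SE; edgeR adjusted p = 0.0532), and was higher in GFP- cells by 0.65 ± 0.15 (SE; edgeR adjusted p = 0.00119). Kif23 passed the test in GFP+ cells in 11 of 27 alternatives.

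Ube2c was the member that fell between the genotypes in GFP+ cells, at -0.54 ± 0.14 (SE; edgeR adjusted p = 0.00384), while it was higher in GFP- cells by 0.58 ± 0.15 (SE; edgeR adjusted p = 0.00219). With the length-trend offset Ube2c, the shortest member, stood at -0.63 in GFP+ cells (edgeR adjusted p = 1.34e-04) and at 0.01 in GFP- cells (edgeR adjusted p = 0.949), so that its call in GFP- cells was lost. Between genotypes in GFP- cells the fifth of all genes with the shortest length had a median of 0.33 and the fifth with the longest -0.27. Its partner in the APC/C route, Cdc20, was higher in both sorts, by 0.42 ± 0.13 and 1.49 ± 0.14. Cdca3 was higher by 0.77 ± 0.15 and 1.92 ± 0.16. The cyclins Ccna2, Ccnb1 and Ccnb2 were higher in both sorts, with 0.63 ± 0.17, 0.63 ± 0.22 and 0.49 ± 0.13 in GFP+ cells and 1.55 ± 0.17, 1.63 ± 0.24 and 1.58 ± 0.13 in GFP- cells.

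Of the Aurora and Polo kinases and their passenger subunits, 0 of 5 passed between genotypes in GFP+ cells with edgeR and with DESeq2's Wald test. All 5 values were above 0, from 0.14 to 0.43, and 1 of 5, Birc5, had an unadjusted p under 0.05. Birc5 passed with the epithelial scale (edgeR adjusted p = 0.0351). With the replicate block Birc5 and Aurkb passed (edgeR adjusted p = 0.0316 and 0.0359). In GFP- cells all 5 were higher. Birc5 stood at 0.39 ± 0.17 (SE; edgeR adjusted p = 0.0583) and 1.90 ± 0.18 (SE; edgeR adjusted p = 4.48e-08). Plk1 stood at 0.24 ± 0.16 and 0.82 ± 0.16, and Aurka at 0.15 ± 0.13 and 1.08 ± 0.14. Top2a (0.07 ± 0.17), Kif4 (0.04 ± 0.18), Tpx2 (0.06 ± 0.16) and Nusap1 (-0.05 ± 0.15) were the members nearest to 0 in GFP+ cells. Kif11, Kif20a and Anln were higher there by 0.71 ± 0.17, 0.70 ± 0.12 and 0.70 ± 0.16.

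Members lie on 15 chromosomes, whose tested genes had medians of their own between the genotypes. In GFP+ cells the median was 0.48 on chromosome 5, which holds Cenpa and Ncapg, and 0.48 on chromosome 18, with Kif20a. It was 0.24 on chromosome 6, with Mad2l1, Ncapd2 and Cdca3, and -0.27 on chromosome 2, with Ube2c, Bub1, Bub1b, Aurka, Tpx2 and Nusap1. Of the 36 members 34 lay above the median of their chromosome in GFP+ cells, by a median of 0.52, and 36 in GFP- cells, by a median of 1.25. Mad2l1 lay 1.42 above its chromosome in GFP+ cells and Cenpa 0.54. Ncapg lay 0.10 above. Ube2c stood at -0.27 and Kif23, on chromosome 9, at -0.13 relative to their chromosomes. The part of these chromosome-wide medians in the results was not tested.

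**Figure D4:**
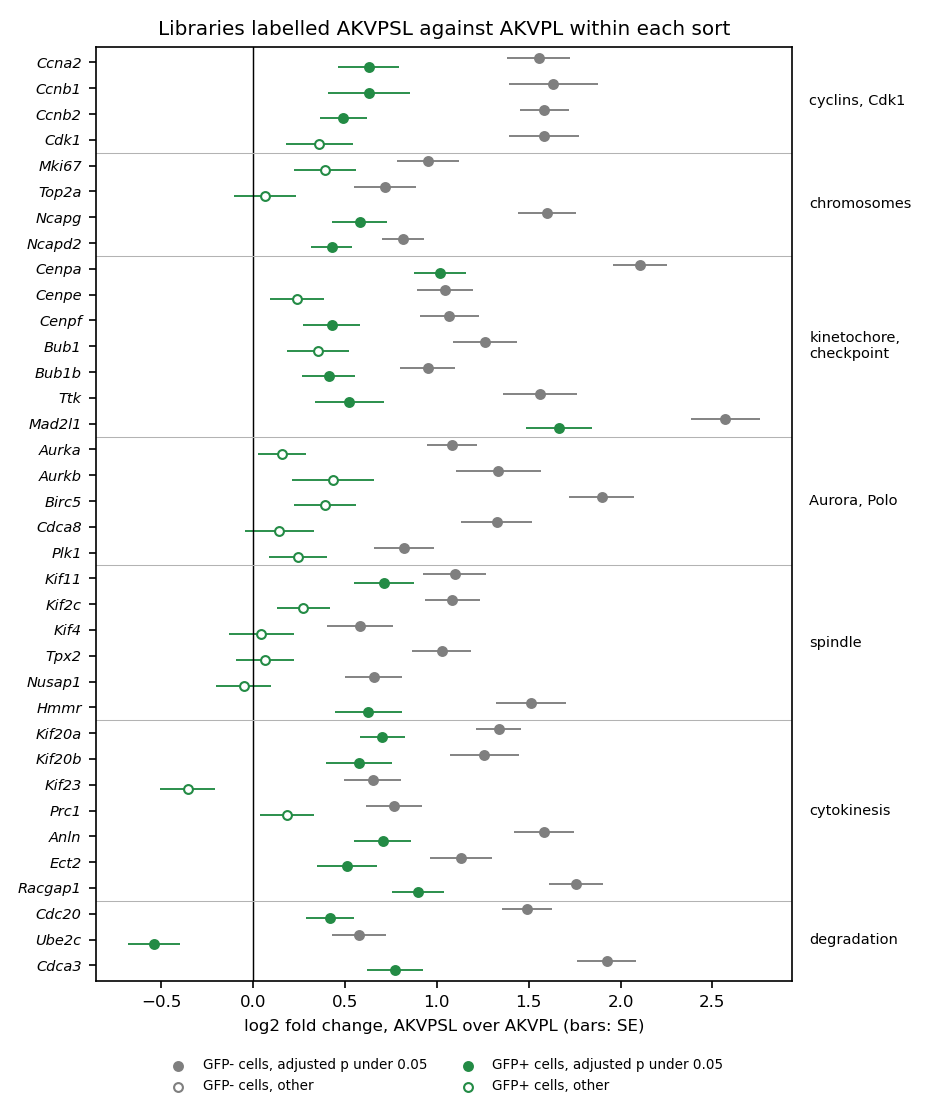
Log2 fold change of the libraries labelled AKVPSL over AKVPL for each of the 36 genes, with its SE, in GFP- cells (grey) and GFP+ cells (green); filled points passed an edgeR adjusted p of 0.05. All grey points are filled and right of 0; among the green points 20 are filled, of which Ube2c alone lies left of 0.

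**Figure D5:**
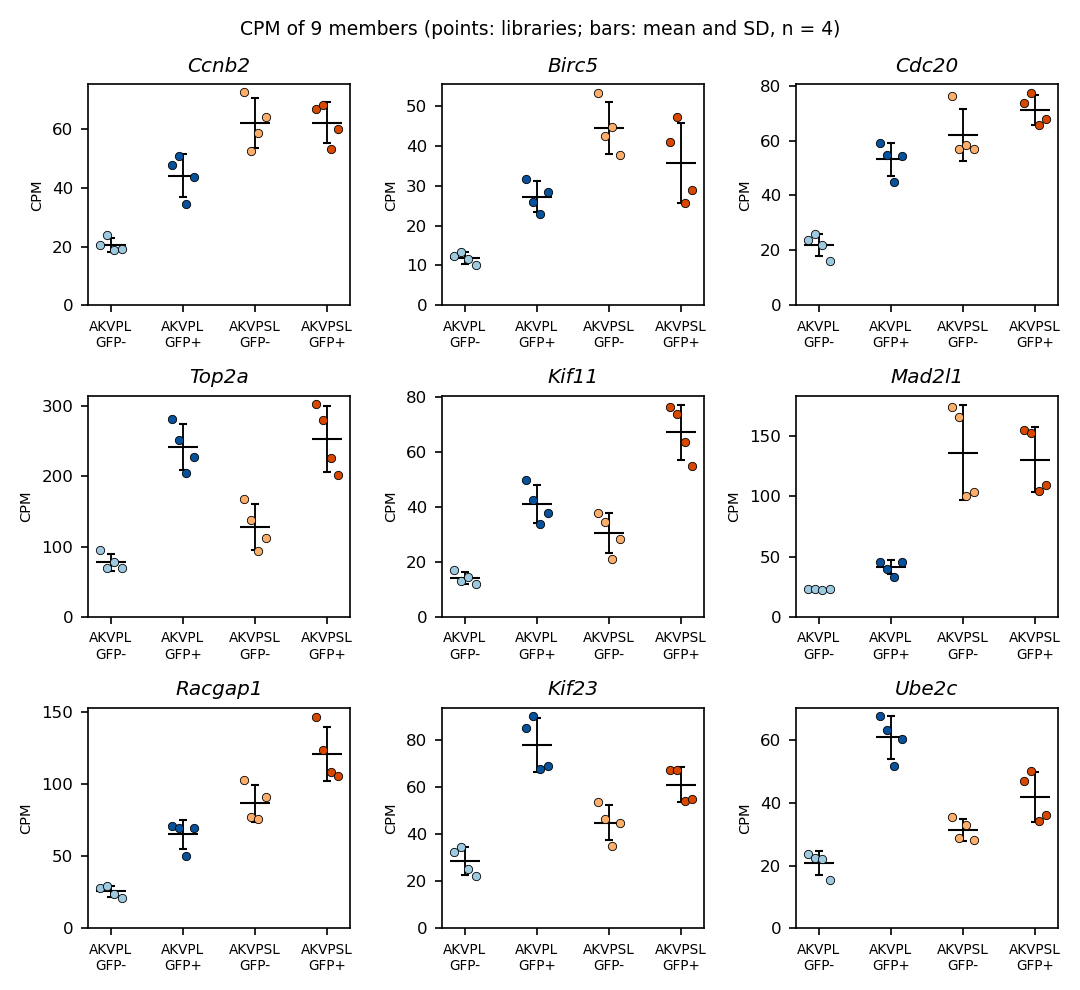
CPM of 9 members in each of the 16 libraries (points), with the mean and SD of each group of 4 (bars). The AKVPSL GFP- and GFP+ libraries overlap for Ccnb2, Birc5 and Cdc20, Top2a and Kif11 are apart there, and Kif23 and Ube2c are highest in AKVPL GFP+.

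Other genes of the cell cycle were taken from fixed lists. In the sort effects the 18 further spindle and cytokinesis genes had medians near those of the members. With the sort 18 of 18 rose in AKVPL (median 1.32) and 15 of 18 in AKVPSL (median 0.72). Among them were the spindle motor Kif14 (1.74 ± 0.21 and 1.27 ± 0.20) and the spindle-pole gene Aspm (1.75 ± 0.18 and 1.19 ± 0.17). Of 29 further kinetochore genes 27 rose in AKVPL (median 1.01), with Knl1, the scaffold of checkpoint proteins, at 1.66 ± 0.23. In AKVPSL 8 rose and 2 fell (median 0.31). Of the 15 further condensin, cohesin and separation genes 14 rose in AKVPL (median 0.85) and 13 in AKVPSL (median 0.58), where Espl1, the protease that opens cohesin rings, had the largest value, 1.01 ± 0.16. Of 11 genes of mitotic entry 9 rose and 1 fell in AKVPL (median 1.30), against 4 that rose in AKVPSL (median 0.35). The kinase Melk rose by 1.55 ± 0.18 in AKVPL. With the epithelial scale 7 of the 15 condensin, cohesin and separation genes rose in AKVPL (median 0.45), and 17 of the 29 kinetochore genes rose and 1 fell (median 0.61). On that scale 15 of the 18 spindle and cytokinesis genes rose (median 0.92), and of the 11 genes of mitotic entry 7 rose and 2 fell (median 0.92). In AKVPSL 2 of those 11 rose (median 0.30). The difference of sort effects was lower for 25 of 36 members (median -0.89), but for 6 of the 18 spindle and cytokinesis genes (median -0.52). It was lower for 2 of the 15 condensin, cohesin and separation genes (median -0.22) and 16 of the 29 kinetochore genes (median -0.80). Of the 11 genes of mitotic entry 7 were lower and 1 higher (median -0.77). With the epithelial scale 3, 1, 4 and 2 genes of these lists were lower and 1, 1, 0 and 2 higher.

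DNA replication genes, which act before G2, had smaller medians than the members with the sort; the contrast between the lists was not tested. In AKVPL 33 of 35 rose (median 0.71), and in AKVPSL 7 rose and 1 fell (median 0.08). The polymerase subunits Pola1 and Pole rose by 1.26 ± 0.16 and 1.15 ± 0.21 in AKVPL and by 0.75 ± 0.15 and 0.56 ± 0.21 in AKVPSL. Between the genotypes 32 of 35 were higher in GFP- cells labelled AKVPSL (median 0.88) and 16 of 35 in GFP+ cells (median 0.31). Rrm2, a subunit of ribonucleotide reductase, was higher by 1.74 ± 0.27 and 1.03 ± 0.26. The difference of sort effects was lower for 13 of 35 (median -0.63). With the epithelial scale 12 of 35 rose with the sort in AKVPL (median 0.32) and 3 in AKVPSL (median 0.02), and 2 of 35 had a lower difference of sort effects (median -0.30). With the length-trend offset 5 of 35 had a lower difference (median -0.43).

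Subunits and regulators of the APC/C, most of which are present through the cell cycle, had small medians with the sort. Of 17 genes 10 rose in AKVPL (median 0.28), and 3 rose with the length-trend offset. In AKVPSL 4 rose and 2 fell (median -0.08). With the epithelial scale 1 rose and 3 fell in AKVPL (median -0.12), so their direction depends on the scale. The largest value with the sort was that of Fbxo5, an inhibitor of the complex, at 1.23 ± 0.24 in AKVPL. Between the genotypes 9 of the 17 were higher and 1 lower in GFP- cells labelled AKVPSL (median 0.53). There 32.0% of all genes tested were higher. Anapc4 had the largest value, 0.98 ± 0.09. With the epithelial scale 6 were higher and 3 lower (median 0.23). In GFP+ cells 5 were higher and 1 lower (median 0.04). Of 21 transcription factors and complex subunits that act on mitotic promoters 10 rose and 1 fell in AKVPL (median 0.23), and 3 rose and 6 fell with the epithelial scale (median -0.16). In AKVPSL 6 rose and 2 fell (median 0.12). Foxm1, an activator of these promoters, rose by 1.06 ± 0.15 in AKVPL and 0.62 ± 0.15 in AKVPSL, and was higher in the libraries labelled AKVPSL by 0.73 ± 0.15 in GFP+ and 1.18 ± 0.15 in GFP- cells. Mybl2, its partner in G2, rose by 0.94 ± 0.22 in AKVPL and was lower in GFP+ cells labelled AKVPSL, at -0.70 ± 0.21. The activator E2f2 was lower there too, at -2.57 ± 0.27 in GFP+ and -2.72 ± 0.27 in GFP- cells.

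Of 15 G1 cyclins, kinases and CDK inhibitors 8 rose and 1 fell with the sort in AKVPL (median 0.33), 1 rose and 4 fell with the epithelial scale (median -0.07), and 3 rose and 3 fell in AKVPSL (median -0.13). Cdkn1a, the CDK inhibitor p21, fell in AKVPSL GFP+ cells, at -1.51 ± 0.31, and was lower in the libraries labelled AKVPSL, at -2.17 ± 0.32 in GFP+ and -1.38 ± 0.31 in GFP- cells. Cdkn2a, which encodes inhibitors of the G1 kinases and of Mdm2, rose with the sort in AKVPL, by 0.84 ± 0.12, and fell in AKVPSL, at -0.82 ± 0.12, a difference of -1.66 ± 0.17 (SE; edgeR adjusted p = 3.37e-06).

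Several members share exon bases with a gene on the other strand, and whether counting used strand is not stated in the labels or headers. These pairs are Ccna2 with Exosc9, Cdc20 with Elovl1, Cdca8 with 9930104L06Rik, Kif20a with Cdc23, Kif4 with Pdzd11, Ncapg with Lcorl, Nusap1 with Oip5, Prc1 with Rccd1 and Ube2c with Tnnc2. The shared stretch runs from 53 bases (Cdc20) to 977 (Kif20a), and reads there cannot be told apart without strand. Kif4 has a copy, Kif4-ps, with 25 counts over all libraries against 10731.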

How the data were processed

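Bulk RNA sequencing was measured in 16 libraries, 4 in each of 4 groups. Reads were aligned with GSNAP to GRCm38, per the submitters' processing notes, with no versions given. The deposited counts are reads aligned uniquely to a gene model, per the file headers. The deposited RPKM values were adjusted by a size factor by the authors, per the file headers, and serve here for levels between genes and for gene length. Of 36528 gene IDs, 31049 (85.0%) matched RefSeq. Counts were tested with edgeR 4.0.16 (R 4.3.3; quasi-likelihood test, TMM factors from 0.936 to 1.086, filterByExpr, 1 mean per group, 5 contrasts, 12 residual degrees of freedom) over 18072 genes, with Benjamini-Hochberg adjustment and a threshold of 0.05. The fit was run on simulated counts in which few genes changed, as many up as down, in libraries drawn independently. Here many genes changed and replicates moved together, so the simulation does not show how the calls behave in these data. Within groups the 24 pairs of libraries differed beyond counting noise (chi-square per degree of freedom of 9.05 to 73.57).

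The named genes are all 36 members, Lgr5, the defining markers and the leading genes of each other list; Smad4 was added as a check of the genotype labels after its values were seen. The members and lists were chosen with earlier results of these data known. Replicate numbers come from the labels. Within a genotype, libraries that share a number deviated together from their group means, with 8 correlations between 0.1033 and 0.3664, and were taken as pairs for the block on the sort effects. The pairing is weak in AKVPSL, where libraries with different numbers reached 0.3797 (GFP- 4 with GFP+ 3) and 0.3257 (GFP- 3 with GFP+ 4), above the values of numbers 3 and 4 themselves (0.1033 and 0.2594). Across genotypes, libraries of the same sort and number correlated at -0.0392 to 0.2785. For the comparisons between genotypes the block still gave all libraries of a number a shared effect. Alternatives were other scalings, no filter, DESeq2 1.42.0, limma 3.58.1 on log2(RPKM + 1) and log2(RPKM + 0.1), fits on 2 groups, the replicate block, leaving out each library and, added after the data were seen, a length-trend offset. Gating and strand setting are not stated in the labels or headers. Depth of 10.881 to 41.602 M counts leaves every member tested; Ccnb1, the lowest, had 2377 counts over all libraries.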

Additional observations from a re-analysis of the deposited data

Results flagged for a closer look

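The sort effect was smaller in AKVPSL than in AKVPL for 25 members by a test of the difference itself (edgeR, adjusted p between 0.000438 and 0.0491); differences are AKVPSL minus AKVPL in log2 units. Among the cyclins and Cdk1 these were Ccna2 (-0.93), Ccnb1 (-1.004), Ccnb2 (-1.09) and Cdk1 (-1.22), and of chromosome structure Ncapg (-1.02). Of the kinetochore and checkpoint they were Cenpa (-1.09), Cenpe (-0.81), Cenpf (-0.64), Bub1 (-0.91), Ttk (-1.04) and Mad2l1 (-0.91), and of the kinases and passenger subunits Aurka (-0.93), Birc5 (-1.51) and Cdca8 (-1.18). Of the spindle they were Kif2c (-0.81), Tpx2 (-0.96), Nusap1 (-0.71) and Hmmr (-0.88), of cytokinesis Kif20a (-0.63), Kif23 (-1.005), Anln (-0.88) and Racgap1 (-0.86) and of degradation Cdc20 (-1.07), Ube2c (-1.12) and Cdca3 (-1.15). Leukocyte and fibroblast marker sums were highest in AKVPL GFP- libraries, and their part in these differences was not tested. The differences also followed gene length: 10 of the 12 shortest members are among the 25, and 5 of the 12 longest.

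Single libraries stood apart in 4 of the 144 sets of 4 values (36 members in 4 groups). By chance about 1 in 20 independent sets would pass this rule. Members moved together within libraries, so the count of 4 is not read against that rate. Cdc20 was at 76.2 CPM in AKVPSL GFP- replicate 1, with the next library at 58.4 CPM. Ect2 was at 25.3 CPM in AKVPL GFP- replicate 1, with the next at 18.5 CPM. Cenpa and Racgap1 were low in AKVPL GFP+ replicate 3, at 32.9 and 49.9 CPM, with the next libraries at 46.1 and 69.7 CPM.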

How the results depend on the processing

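No result over the members changed direction in 27 alternatives (26 for the difference of sort effects). With libraries scaled by epithelial markers the median was 0.96 for the sort in AKVPL, 0.96 for the genotypes in GFP- cells and -0.56 for the difference of sort effects, which was then called lower for 11 members. On log2(RPKM + 1) with limma, with and without a filter, these medians were 1.09, 0.89 and -0.56, and 16 members were called lower for the difference with the filter and 14 without; the pseudocount narrows changes of low genes. Between genotypes in GFP+ cells 2 members in place of 1 were lower with DESeq2's size factors, library totals, DESeq2's Wald test, a fit on only the 2 groups compared, the replicate block and the length-trend offset. Leaving out 1 library at a time gave 36 members that rose with the sort in AKVPL each time (median 1.27 to 1.47), and 16 to 25 that rose and 0 to 1 that fell in AKVPSL (0.38 to 0.57). It gave 15 to 22 higher and 1 to 2 lower between genotypes in GFP+ cells (0.32 to 0.49), 36 higher in GFP- cells (1.12 to 1.40) and 21 to 35 with a lower difference of sort effects (-1.02 to -0.75). The count of 15 was without AKVPL GFP+ replicate 3, that of 16 without AKVPSL GFP+ replicate 1, and that of 21 came with either AKVPL GFP+ replicate 1 left out, or replicate 1 of AKVPSL GFP-.

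With the replicate block 36 members rose with the sort in AKVPL and 28 in AKVPSL. Between genotypes 24 were higher and 2 lower in GFP+ cells and 36 higher in GFP- cells, and 34 had a lower difference. The block changed 19 calls on single members, all of them gained. Across genotypes the libraries share only a number, which the block used all the same for the comparisons between genotypes. In AKVPSL some libraries correlated more with another number than with their own. Whether the numbers mark true pairs was not tested. Depth did not keep any member from being tested; Ccnb1 rests on the fewest counts.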
